A study of Mus musculus with 6 samples.

Results

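Interferon-γ (IFN-γ) and lipopolysaccharide (LPS) turn resting macrophages into the inflammatory state called M1, and the data below describe that change in macrophages that also received regorafenib. Regorafenib is a multikinase inhibitor used in liver and colorectal cancer. The comparison consists of 2 of the 6 RNA-seq libraries of the study, the M1 library with regorafenib and the M0 (unpolarized) library with regorafenib. There was 1 library per condition. The cells were bone marrow–derived macrophages (BMDMs) from male BALB/c mice of 6–8 weeks, differentiated for 7 days in DMEM with 10% fetal bovine serum and 20% medium conditioned by L929 cells, a source of the macrophage growth factor CSF-1. All 6 conditions shared this differentiation. Regorafenib (1 µM) was given 1 hour before polarization, and M1 cells then received IFN-γ at 20 ng/mL together with LPS at 50 ng/mL for 24 hours. The control libraries were treated with DMSO, and the remaining pair, M2, received IL4 (20 ng/mL). Whether libraries came from the same or from pooled animals is not given in the sources used here.

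IFN-γ signals through Janus kinases and STAT factors to genes with GAS elements, and LPS signals through TLR4, its co-receptors and the adaptors MyD88 and TRIF to NF-κB, AP-1 and IRF3. TRIF signaling also induces IFN-β, which drives a further set of interferon-stimulated genes through ISRE elements. Macrophages stimulated with both are known for cytokines such as TNF, IL-6 and IL-12, for nitric oxide made by NOS2, for increased antigen presentation and glycolysis, and for leaving the cell cycle.

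The authors deposited read counts per gene. The M0 and M1 libraries with regorafenib held 29335774 and 28546104 counts, and the 6 libraries ranged from 25359309 to 34898342. Counts were scaled with TMM, a factor that corrects for differences in library composition, which ranged from 0.820 to 1.12. The log2 ratio of M1 to M0 is given with a 95% interval from the counts of the gene. These intervals cover counting error only, reads amplified by PCR are not independent molecules, and no ratio has a replicate check or a test. A gene was counted as higher or lower when its ratio passed 2-fold, with a library at 3 or fewer counts set to 3. With scaling to total counts, every log2 ratio was 0.41 lower.

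The libraries carried the macrophage markers. Each of the 10 had counts, from 228 (Aif1) to 1408918 (Lyz2) in M0 and from 149 (Aif1) to 493711 (Lyz2) in M1, and together they summed to 49365 CPM (counts relative to the TMM-scaled library size) in M0 and 34851 CPM in M1. Of 10 lymphocyte markers, 8 were at 0 in M0 and 9 in M1, including Cd3e and Ncr1. Among 10 mast cell and erythroid markers, 9 were at 0 in each library. Neutrophil markers summed to 158 CPM in M0 and 110 CPM in M1, most of it from Mpo (5124 and 2064 counts), with Ly6g, Ngp and Retnlg at 0 in both libraries. S100a8 (91 and 489 counts) and Camp (1 and 91 counts) of that list were higher in M1. Dendritic cell markers summed to 56.3 and 91.2 CPM, of which Cd24a gave most, and Siglech was at 0 in both libraries. Ccr7 and Xcr1 of that list were higher in M1, with 3 and 827 counts for Ccr7 and 0 and 102 counts for Xcr1, while Flt3 had 1 and 2 counts. Fibroblast and endothelial markers summed to 40.2 and 58.6 CPM. In bulk RNA, fewer cells of a type and less RNA per cell cannot be told apart, and the part of these cells in the results was not tested.

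Upstream sequences are shown for the genes with the highest M1 to M0 ratios whose RefSeq promoter held a match to a GAS (TTCNNNGAA), an ISRE core (GAAANNGAA) or a κB motif (GGNNNTTCC), the elements bound by STAT, IRF and NF-κB factors. One is shown for the lowest ratio with a match to an E2F motif (TTTCCCGC), an element of many cell cycle genes. Sequences are from RefSeq on GRCm38.p6, on the strand of the gene, 5′ to 3′, and capitals mark the match, on either strand, for which the gene was chosen.
Cxcl9: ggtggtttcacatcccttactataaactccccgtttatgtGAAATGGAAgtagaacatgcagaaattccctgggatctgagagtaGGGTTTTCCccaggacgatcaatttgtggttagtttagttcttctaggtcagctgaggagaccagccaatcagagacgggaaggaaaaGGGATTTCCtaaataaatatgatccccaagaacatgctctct
Il6: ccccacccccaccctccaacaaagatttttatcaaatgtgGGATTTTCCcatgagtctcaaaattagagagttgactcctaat
Saa3: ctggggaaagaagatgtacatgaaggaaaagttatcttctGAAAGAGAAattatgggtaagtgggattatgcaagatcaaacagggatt
Gbp5: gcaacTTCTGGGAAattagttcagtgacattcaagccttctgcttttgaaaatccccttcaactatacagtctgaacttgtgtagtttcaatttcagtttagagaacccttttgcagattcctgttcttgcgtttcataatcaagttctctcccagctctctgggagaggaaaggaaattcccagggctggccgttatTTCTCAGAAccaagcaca
Rasgrp1: gggggcaggaTTCGAAGAAgaactgaggg
E2f7: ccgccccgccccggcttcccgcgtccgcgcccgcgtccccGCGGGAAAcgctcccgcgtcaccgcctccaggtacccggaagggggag

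Cxcl9, a chemokine induced by IFN-γ, lies on the minus strand, and its window (chr5:92328080-92328294) holds 1 ISRE core 175 bases before the start and 2 κB matches that begin 130 and 42 bases before it. Cxcl9 had 5 counts in M0 and 16548 in M1. The Il6 window (chr5:30013031-30013113, plus strand) holds a κB match that begins 43 bases before the start. Il6 had 12 and 39074 counts. Saa3, an acute phase protein, has an ISRE core 125 bases before its start (chr7:46715753-46715841, minus strand) and had 792 and 571676 counts. The 2 GAS matches of Gbp5, a guanylate-binding protein that acts on vacuoles of pathogens, begin 245 and 52 bases before the RefSeq start (chr3:142496684-142496899, plus strand), which is 2956 bases from the start of the Gencode gene. Gbp5 had 73 and 33984 counts. The match of Rasgrp1, a Ras activator (chr2:117342979-117343007, minus strand), lies inside an exon of the Gencode annotation, so a short stretch is shown, and its counts were 5 and 3702. E2f7, a repressor of the cell cycle, had 211 counts in M0 and 0 in M1, at least 51.4-fold lower, and its match, on the opposite strand, begins 198 bases before the start (chr10:110745201-110745288, plus strand).

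Over windows of 300 bases (250 before the start and 50 after), the ISRE core was found in 15.4% of 794 genes that were at least 4-fold higher and had a sequence, in 6.67% of 900 that were at least 4-fold lower, and in 7.43% of all 10080. AP-1 matches (TGANTCA) were found in 11.8%, 5.56% and 5.0%, and GAS matches in 9.19%, 6.22% and 6.87%. The κB letters had shares of 21.7%, 20.3% and 22.3%. E2F matches were found in 1.01%, 2.78% and 2.20%, CRE matches (TGACGTCA) in 2.52%, 1.89% and 3.28%, and CCAAT in 32.7%, 42.6% and 38.9%. Both strands were searched, and the ISRE core and GAS can share bases, since both contain GAA. A match is a stretch of letters and not a measured site. Median G and C content of the windows was 56.3%, 59.7% and 60.7% in the 3 groups, and its part in these shares was not tested.

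In all, 14159 of 54446 genes had at least 10 counts in one of the libraries and entered the comparison. IFN-γ and LPS under regorafenib left 2311 genes (16.3%) at least 2-fold higher and 3056 (21.6%) at least 2-fold lower, with 8792 between. Past 4-fold, 1180 genes (8.33%) were higher and 1261 (8.91%) lower. The higher genes took 11.1% of all counts in M0 and 47.2% in M1, whereas the lower genes took 27.9% and 6.63%. Of the 2-fold calls 43.1% were higher, and 27.7% with scaling to total counts. The median log2 ratio over all genes was −0.09. The shares of 16.3% higher and 21.6% lower are the background for the list counts below.

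The 15 highest ratios belonged to genes of several kinds, given here by name. Il1a, which encodes the alarmin IL-1α, had 42 counts in M0 and 384772 in M1 (log2 ratio 13.61, interval 13.18 to 14.09), and Il1b had 98 and 595706 (13.02, 12.74 to 13.32). Both subunits of IL-12, the cytokine that drives Th1 cells, were close to absent in M0. Il12b had 3 counts in M0 and 26829 in M1 (13.58, 12.03 to 15.86), and Il12a had 1 and 7248 (13.28, 10.80 to 18.58). Nos2, which makes nitric oxide, had 40 and 221627 counts (12.89, 12.44 to 13.37). Ptgs2 (COX-2), which makes prostaglandins, had 69 and 318861 counts (12.63, 12.29 to 12.99). The other genes among the 15 highest were Cxcl9 (12.14), Il6 (12.12), Lcn2 (12.08), Cd38 (11.62), Marco (11.60, 10.06 to 13.88), Inhba (11.43), Cxcl3 (11.31), Ccl5 (11.07) and Csf3, with 1 and 4750 counts (12.67, 10.19 to 17.97). They encode chemokines, IL-6, the siderophore-binding lipocalin 2, the NAD-consuming enzyme CD38, a scavenger receptor, activin A and G-CSF.

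**Figure D1:**
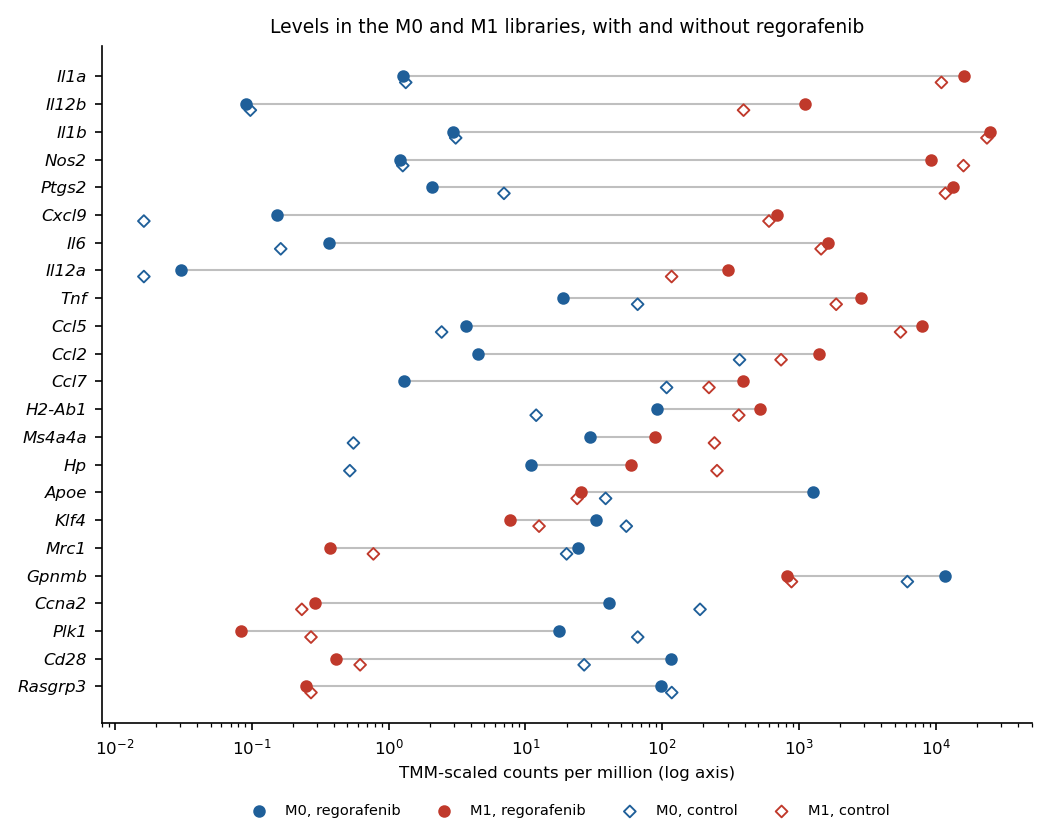
TMM-scaled CPM of 23 genes (log axis) in the M0 (blue) and M1 (red) libraries with regorafenib (filled circles, joined by a line) and without it (open diamonds), 1 library each, with a count of 0 drawn at 0.5 counts. The M1 circles and diamonds lie close together for most genes, while the M0 values of Ccl2, Ccl7, Ms4a4a, Hp and Apoe are far apart.

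In level, the largest differences in CPM in favor of M1 were those of Fth1, Il1b, Saa3, Il1a, Ptgs2, Nos2, Ccl5, Cxcl2, Slc7a2 and Acod1. Fth1, the ferritin heavy chain that stores iron, had 353962 and 951307 counts (1.88, 1.87 to 1.88). Slc7a2, an arginine transporter, had 2644 and 168382 counts (6.44), and Acod1, which makes itaconate, had 642 and 151364 counts (8.33). Per kilobase of exon, Il1b had 1.56 CPM in M0 and 12961 in M1, and Ccl5 had 3.82 and 8231. The lysozyme gene Lyz2 had 32478 and 15566 CPM per kilobase.

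Of 28 cytokine genes 26 entered, of which 24 were at least 2-fold higher and 0 lower, with a median log2 ratio of 5.15, against 16.3% and −0.09 over all genes. Tnf had 623 and 68721 counts (7.24, 7.12 to 7.35). The growth factors Csf2 (GM-CSF, 0 and 462 counts) and Lif (0 and 224 counts) were at least 210.6-fold and 102-fold higher. Il23a, the p19 subunit of IL-23, was at 0 in M0 and at 67 counts in M1. Il10, the main anti-inflammatory cytokine, had 4 and 96 counts (5.04). Il18 (139 and 125 counts, 0.30) and Tgfb1 (7891 and 4448 counts, −0.38) were within 2-fold. Ifnb1 had 1 and 2 counts and Ifng 0 in both libraries, so neither entered.

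Both chemokine families were higher too. Of 12 CC chemokines that entered, 10 were higher and 2 lower (median 7.34), and of 12 CXC chemokines likewise 10 and 2 (median 6.54). Ccl3, which attracts monocytes and T cells, had 727 and 136876 counts (8.01), and Ccl22, a ligand of CCR4, had 5 and 6114 (10.71). Ccl17, another CCR4 ligand that is usually taken as an IL4 marker, was at 0 in M0 and at 375 counts in M1, at least 171-fold higher. The lower CC genes were Ccl6 (1773 and 279 counts, −2.22) and Ccl24 (29 and 2 counts, −3.41, −6.52 to −1.42). Among CXC genes, the neutrophil attractant Cxcl2 had 125 and 170947 counts (10.87), and Cxcl10 had 66 and 4523 (6.55). Cxcl12 (17 and 4 counts) and Cxcl14 (845 and 200 counts, −1.63) were lower. Of 8 chemokine receptors, 3 were higher and 3 lower. Ccr7, which guides cells to lymph nodes, had 3 and 827 counts, whereas Cx3cr1 (3949 and 24 counts, −6.91), Cxcr4 (18703 and 194, −6.14) and Ccr2 (757 and 19, −4.86) were lower.

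Genes of the interferon response were higher as a block. All listed guanylate-binding protein genes (11, median 6.84) and type I interferon-stimulated genes (35, median 3.62) entered and were at least 2-fold higher, as were 11 of 13 immunity-related GTPases that entered (median 4.48). Gbp4 had 27 and 18008 counts (9.83, 9.29 to 10.44), Isg15, a ubiquitin-like protein, 173 and 13019 (6.69, 6.47 to 6.91), and Iigp1, a GTPase that targets parasite vacuoles, 19 and 4386 (8.30). The 2 lower GTPase genes were 9930111J21Rik1 (790 and 154 counts) and 9930111J21Rik2 (1958 and 505 counts), of whose 100-base words 70.5% and 48.3% also occur in other genes. Such words were also frequent in Gbp6 (64.5%), Gbp10 (73.5%), Tgtp1 (73.1%) and Tgtp2 (76.8%). Since STAR counted uniquely mapped reads, the counts of such genes are uncertain.

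The receptors and adaptors for the 2 stimuli had no common direction, with 7 of 20 higher and 4 lower (median 0.51). With scaling to total counts, 4 were higher and 5 lower (median 0.10). Over all genes, 16.3% were higher and 21.6% lower, so the 4 lower ones are near that share. Jak2 had 1499 and 18969 counts (4.11), and the LPS co-receptor Cd14 had 16464 and 103649 (3.11). The receptor genes Ifngr1 (3697 and 784 counts, −1.79) and Tlr4 (6886 and 2091, −1.27) were lower. Among 17 STAT and IRF genes, 11 were higher and 1 lower (median 1.77), led by Irf7 (1778 and 39101 counts, 4.91), Batf (121 and 1960, 4.47) and Batf2 (195 and 2456, 4.11). Irf4 was the lower one (162 and 29 counts, −2.03). Of 16 genes for NF-κB subunits and inhibitors, 11 were higher and 0 lower (median 1.72). The inhibitors Tnfaip3 (A20, 920 and 11774 counts, 4.13) and Nfkbia (3417 and 31410, 3.65) were higher, while the subunit gene Rela (3405 and 3624, 0.54) was within 2-fold. The 17 feedback inhibitors were each at least 2-fold higher (median 3.35), and 15 of them with scaling to total counts. Socs1, which binds and inhibits JAKs, had 21 and 5315 counts (8.44), Il1rn, the IL-1 receptor antagonist, 183 and 28783 (7.75), and Cd274 (PD-L1) 1163 and 35597 (5.39).

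**Figure D2:**
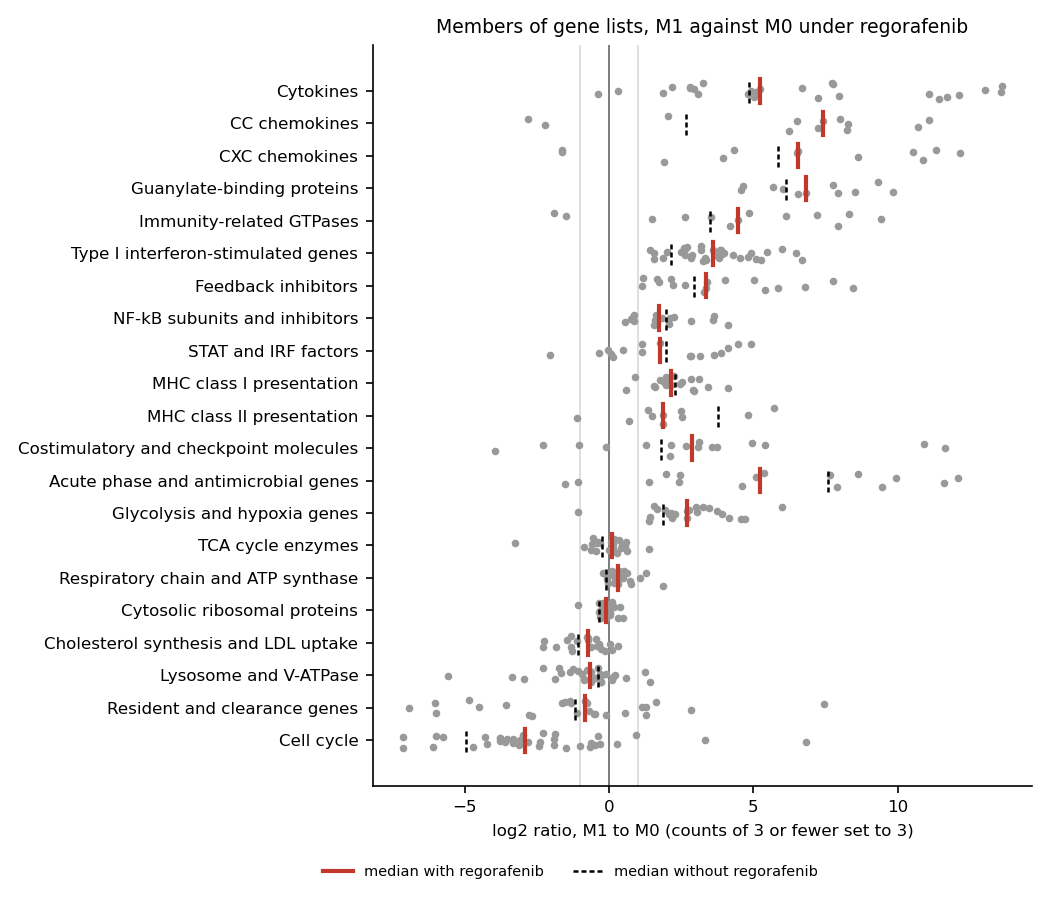
Log2 ratio of M1 to M0 under regorafenib for the members of 21 gene lists (grey points, 1 gene each), with the median of the genes that entered both pairs of libraries with regorafenib (red bar) and without it (black dashes), and grey lines at 2-fold. Among the lists plotted, the medians lie furthest apart for CC chemokines, followed by acute phase, cell cycle, MHC class II and type I interferon-stimulated genes.

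Antigen presentation genes were higher for both MHC classes. Of 19 MHC class I genes, 17 were at least 2-fold higher (median 2.16), led by the peptide transporter Tap1 (1095 and 13915 counts, 4.12), whereas the heavy chains H2-K1 (0.89) and H2-D1 (0.61) were within 2-fold. Of 10 MHC class II genes, 8 were higher and 1 lower (median 1.88). H2-Ab1 had 3030 and 12444 counts (2.49, 2.43 to 2.55), H2-Aa 2923 and 6062 (1.50, 1.44 to 1.57), and H2-Eb1 1491 and 3978 (1.87, 1.78 to 1.95). Ctss, the protease that processes the invariant chain, was the lower one (−1.12). Ciita, the master activator of MHC class II, was within 2-fold, with 686 counts in M0 and 495 in M1 (−0.02, −0.19 to 0.15). Among 16 costimulatory and checkpoint genes, 12 were higher and 3 lower. The T cell costimulator Cd40 had 11 and 15600 counts (10.92, 10.08 to 11.92), and Cd86 had 95 and 815 (3.55), while Cd200r1 (5730 and 273 counts, −3.94) and Vsir (16391 and 2431, −2.30), which restrain immune cells, were lower.

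Of 16 acute phase and antimicrobial genes, 14 were at least 2-fold higher (median 5.23), with C3 at 4451 and 110162 counts (5.08). Lyz1 (−1.51) and Lyz2 (−1.06) were the lower ones, Lyz2 being within 2-fold with DESeq2 size factors. Of the receptors for bacterial peptides, Fpr1 had 29 and 5087 counts (7.91) and Fpr2 56 and 16261 (8.63). Of 11 genes of nitric oxide, arginine and itaconate metabolism, transporters included, 8 were higher and 1 lower (median 2.55). Gch1, which supplies the cofactor of NOS2, had 831 and 3563 counts (2.55), and Ass1, which recycles citrulline to arginine, had 1145 and 9896 (3.56). The lipid mediator enzymes were divided. Ptgs2 and the terminal synthase Ptges (134 and 13998 counts, 7.16) were higher, while Ptgs1 (COX-1, 2247 and 43, −5.26) and the leukotriene enzymes Alox5 (2659 and 31, −5.97) and Ltc4s (580 and 16, −4.73) were lower. In this list 4 genes were higher and 7 lower. Hpgd, which degrades prostaglandins, had 148 counts in M0 and 0 in M1, at least 36.1-fold lower.

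Glycolysis and hypoxia genes were at least 2-fold higher in 22 of 23 cases (median 2.71), with the glucose transporter Slc2a1 at 1381 and 24075 counts (4.58, 4.50 to 4.65) and lactate dehydrogenase Ldha at 15659 and 92811 (3.02, 2.99 to 3.04). Pfkfb4 was the exception (1560 and 545 counts, −1.07), and it was within 2-fold with DESeq2 size factors. Mitochondrial genes were near the median of all genes. Of 22 TCA cycle enzymes, 1 was higher, Mdh2 (1.40, within 2-fold with scaling to total counts), and 1 lower, the cytosolic Idh1 (16034 and 1237 counts, −3.24), with a median of 0.10 that became −0.31 with scaling to total counts. The 25 respiratory chain and ATP synthase genes had a median of 0.33, which became −0.08 with that scaling. Cytosolic ribosomal protein genes had a median of −0.12, with 0 of 27 higher and 1 lower. Cholesterol synthesis genes were lower in 8 of 21 cases and higher in 0 (median −0.72), among them Dhcr7 (1050 and 159 counts, −2.27) and Stard4 (1488 and 306, −1.83). In total-count scaling, 12 of these 21 and 17 of 30 lysosomal genes were at least 2-fold lower, against 8 and 10 with TMM.

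Defense and stress genes were higher in part. In the phagocyte oxidase, which makes superoxide, the membrane subunit Cybb had 38857 and 155402 counts (2.45) and the GTPase Rac2 11638 and 25651 (1.59), while the other 4 subunits were within 2-fold. Of 17 inflammasome and cell death genes, 8 were higher and 1 lower (median 0.86). The sensor Nlrp3 had 1580 and 17550 counts (3.93) and the necroptosis effector Mlkl 249 and 4236 (4.54), whereas Pycard, the ASC adaptor, had 963 and 345 (−1.03) and was within 2-fold with DESeq2 size factors and with upper quartile scaling. The antiapoptotic Bcl2a1a, Bcl2a1b and Bcl2a1d were higher, but share 43.5% to 56.8% of their words with each other or with other genes. Of 15 metallothionein, iron and Nrf2 genes, 8 were higher and 2 lower (median 1.01, and 0.60 with scaling to total counts), with the cystine transporter Slc7a11 at 419 and 10543 counts (5.11) and the iron exporter Slc40a1 at 1764 and 156 (−3.05).

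Surface receptors and proteases had members in both directions. Of 14 C-type lectin and TREM genes, 5 were higher and 4 lower (median −0.35), against 16.3% and 21.6% of all genes. Clec4e (Mincle), a receptor for mycobacterial glycolipids, had 4543 and 139633 counts (5.39), whereas Trem2, a lipid receptor, had 25428 and 762 (−4.61) and Clec7a (dectin-1) 1333 and 112 (−3.12). Of 5 Fcγ receptor genes 3 were higher, including the inhibitory Fcgr2b (3331 and 12647, 2.38). Of 14 metalloproteinases and inhibitors, 9 were higher and 3 lower (median 2.13), the lower ones near the 21.6% of all genes. Mmp14, a membrane collagenase, had 323 and 15733 counts (6.06), Mmp13 139 and 7138 (6.13), and the inhibitor Timp2 20696 and 692 (−4.45). Of 14 AP-1 and immediate early genes, 7 were higher and 1 lower (median 1.15, and 0.74 with scaling to total counts), led by Ier3 (281 and 15685, 6.25), while Jun (−0.44) and Fos (−0.07) were within 2-fold.

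Genes of cholesterol efflux and of the nuclear receptors LXR and PPARγ were lower in 10 of 19 cases and higher in 4 (median −1.17). Fabp5, a fatty acid carrier, had 14261 and 905 counts (−3.53), and Cyp27a1, which makes an oxysterol, 1277 and 20 (−5.54). Ch25h, the interferon-induced enzyme for 25-hydroxycholesterol, was higher (34 and 1870, 6.23), as was the efflux pump Abca1 (2520 and 5144, 1.48). Of 22 genes used as IL-4 markers 16 entered, 6 of them higher and 6 lower (16.3% and 21.6% of all genes).

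The largest differences in CPM in favor of M0 were found in abundant genes of the unpolarized cells. The 10 genes were Lyz2, Gpnmb, Psap, Ctsb, Ctsd, Ctss, Lgals3, Eef1a1, Ftl1 and Lipa, most of them lysosomal or secreted proteins. Gpnmb, a membrane glycoprotein of lysosome-rich macrophages, had 381141 and 19550 counts (−3.83), and the acid lipase gene Lipa had 61168 and 4330 (−3.37). Ctsb (−0.95) and Ftl1 (−0.72) were within 2-fold, and 34.4% of the 100-base words of Ftl1 also occur elsewhere in the transcripts. Over 30 lysosome and V-ATPase genes, 10 were lower and 2 higher (median −0.65).

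The lowest ratios, ranked in the same way as the highest, belonged to genes of several kinds. Rasgrp3, a Ras activator, had 3249 counts in M0 and 6 in M1 (−8.63, −10.08 to −7.51). The costimulatory receptor gene Cd28 had 3840 and 10 (−8.13, −9.19 to −7.25), and Slc9a9, an endosomal sodium/proton exchanger, 1349 and 2 (−8.95, −11.99 to −7.09). Pcp4l1 and Nxpe5 had 929 counts each in M0 and 0 in M1, at least 226-fold lower. The rest of the 15 lowest were Mamdc2, Tns1, Kctd12b, Slc36a2, the long non-coding RNA Gm14461, Lrrc14b and the mitotic genes Cenpf (633 and 0 counts), Plk1 (578 and 2), Ccna2 (1337 and 7) and Kif2c (510 and 2). The exons of Lrrc14b overlap those of Ccdc127 on the other strand in full, and which strand column was counted is not stated, so its value is uncertain.

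Of 26 genes of resident macrophages and clearance of dead cells, 13 were lower and 6 higher (median −0.97), and 16 and 3 with scaling to total counts. Gas6, the bridging ligand of the TAM receptors, had 12900 and 150 counts (−5.97, −6.22 to −5.74), and Mrc1 (CD206) had 805 and 9 (−6.03, −7.17 to −5.10). Mertk, a TAM receptor, was higher (1230 and 2751, 1.61), as was Timd4, a receptor for phosphatidylserine (7 and 903, 7.46). The macrophage marker Adgre1 (F4/80) had 30622 and 162165 counts (2.86). Of 19 factors of macrophage identity, 9 were lower and 2 higher, the highest at 2.97 (median −0.42). Cebpa (4086 and 173, −4.11) and Klf4 (1074 and 187, −2.07, −2.30 to −1.84) were lower, while Spi1 (PU.1) was within 2-fold (−0.13). Creb1 and Mapk14 (p38α), which the study places upstream of Klf4, were within 2-fold, at −0.37 (−0.47 to −0.26) and −0.50 (−0.56 to −0.45). Pparg, a lipid sensor, had 411 and 8 counts (−5.23).

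Of 52 genes of an M1 signature cited by the study, 45 matched by symbol and entered, of which 40 were at least 2-fold higher and 1 lower, Arhgap24 (−2.01), with a median of 3.81. Of 31 genes of its M2 signature 28 entered, of which 22 were lower and 2 higher, with a median of −1.93. The higher ones were the proteases Mmp12 (5178 and 23138 counts, 2.61) and Mmp9 (10 and 240, 5.04). The M2 library with regorafenib, which had received IL4, held 84 counts of Il1b, 50 of Nos2 and 0 of Cxcl9, against 98, 40 and 5 in M0. It held 12895 of Mrc1, against 9 in M1.

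The same stimulation was given without regorafenib, and that pair shares no library with the first. It left 2465 of 14168 genes higher and 2798 lower. Of the genes that entered both pairs (13675), 1652 were higher in both, which is 73.8% of those higher with regorafenib and 72.6% of those higher without it. For lower genes the 1879 shared were 68.3% and 72.0%. Across these genes, which are not independent replicates, the Pearson correlation of the ratios was 0.864. A difference of the log2 ratios of 1 or more was found in 1532 genes (11.2%) and of −1 or less in 1422 (10.4%). These differences have counting intervals only and were not tested.

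**Figure D3:**
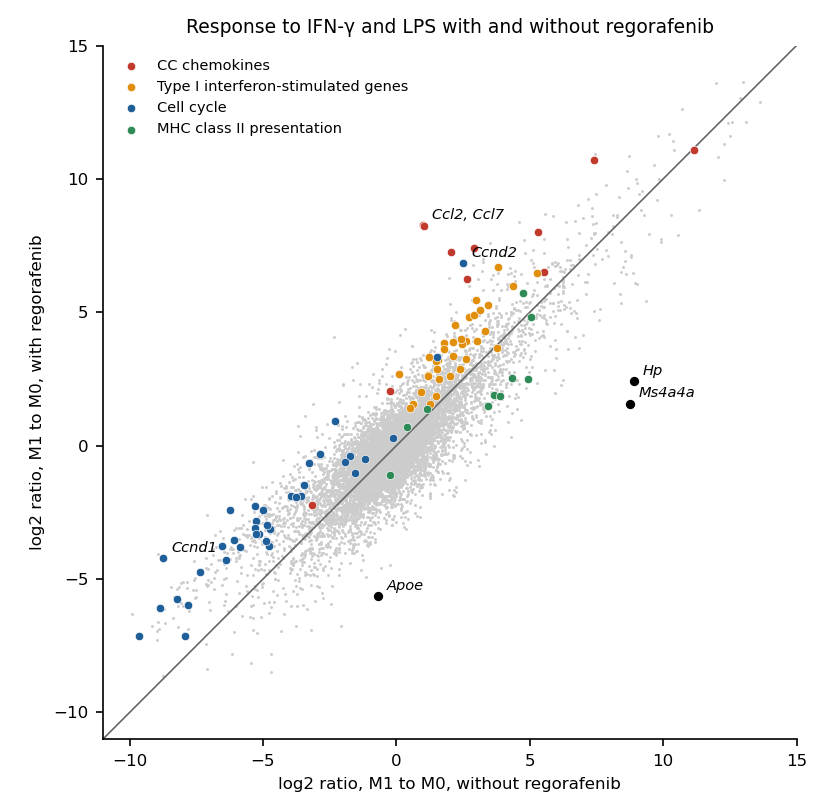
Log2 ratio of M1 to M0 with regorafenib (vertical) against that without it (horizontal) for 13675 genes (grey, counts of 3 or fewer set to 3), with the line of equal ratios. Most CC chemokines, type I interferon-stimulated genes and cell cycle genes lie above the line and 5 of 10 MHC class II genes lie more than 1 below it, with Ccl2 and Ccl7 at 8.26 and 8.23 against 1.01 and 1.03.

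Where the ratios differed, the M0 libraries were apart more often than the M1 libraries. Among the 1532 genes with the higher ratio under regorafenib, the M0 libraries differed by 2-fold or more in 72.3% and the M1 libraries in 9.99%. For the 1422 with the lower ratio the shares were 60.8% and 15.96%, and over all 13675 genes 17.4% and 4.20%. The median distance between the libraries with and without the drug was 0.41 in M0 and 0.17 in M1 on the log2 scale. Since the M0 library with regorafenib enters both the ratio and the difference, a deviation of that 1 library and a response to the drug cannot be told apart.

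The monocyte attractants Ccl2 and Ccl7, ligands of CCR2, had the largest differences. Ccl2 had 149 and 33467 counts in M0 and M1 with regorafenib and 11274 and 19070 without it, a log2 ratio of 8.26 against 1.01 (difference 7.26, 7.02 to 7.48). Ccl7 had 43 and 9429 counts with regorafenib and 3304 and 5671 without it (8.23 against 1.03, difference 7.20, 6.75 to 7.62). In M1, regorafenib to control was 0.91 for Ccl2 and 0.83 for Ccl7, under 2-fold, while in M0 it was −6.34 and −6.37. Ccl22 (6114 against 1295 counts, 2.34) and Ccl17 (375 against 19 counts, 4.40) were more than 2-fold higher in M1 with regorafenib than without it. Ccl12, a neighbor of Ccl2 and Ccl7 on chromosome 11, had 1 and 335 counts with regorafenib and 93 and 324 without it. As a list, CC chemokines that entered both pairs (11) had a median of 7.42 with regorafenib and 2.66 without it. Of these, 8 had a difference of 1 or more, against 11.2% of all genes compared. Over the 12 with at least 10 counts in M0 or M1 with regorafenib, the median level was 2.49 CPM in M0 with the drug and 28.3 CPM without it, and 322.5 and 135 CPM in M1. The 10 highest differences also included Ccnd1, Ccnd2, Acsbg1, Cd300e, F2rl2 and Trem1. Trem1, a receptor that amplifies inflammation, had 23 and 1820 counts with regorafenib and 236 and 1471 without it.

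Ccl2, Ccl7 and Ccl12 are also among 18 genes listed here as induced by CSF-1, a list chosen with earlier results of these data known. The 18 had a median of 2.42 with regorafenib and 0.55 without it. A difference of 1 or more was found in 14, against 11.2% of all genes compared. The study, with a published set of CSF-1 response genes, reported no significant change in BMDMs. The median level of the 18 genes was 6.55 CPM in M0 with regorafenib and 49.7 CPM without it, and 29.5 and 29.7 CPM in M1. Plaur, the urokinase receptor, had 983 and 3903 counts with the drug (2.44) and 3022 and 4352 without it (0.78). Myc had 193 and 104 counts (−0.44) and 1142 and 113 (−3.09). For both, the M0 library with regorafenib was the lower of the M0 libraries and the M1 libraries were within 2-fold.

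Cell cycle genes were lower in M1 in both pairs, but from different starting levels. With regorafenib, 27 of 36 were at least 2-fold lower and 2 higher (median −2.89, against −4.95 without it). Of the 36, 32 had a difference of 1 or more, against 11.2% of all genes compared. Their median level was 32.3 CPM in M0 with regorafenib and 103 CPM without it, and 4.69 and 3.83 CPM in M1. Mki67, the proliferation marker Ki-67, had 5181 and 2417 counts with regorafenib (−0.65, −0.72 to −0.58) and 18430 and 1589 without it (−3.29). The helicase subunit Mcm5 had 1260 and 173 counts with the drug (−2.41) and 7119 and 187 without it (−5.0). Ccnd1 (cyclin D1) had 1921 and 76 against 29262 and 57, and its exons overlap another gene on the other strand over 23.4% of their length. The higher ones were Ccnd2 (cyclin D2), with 50 and 4155 counts (6.83) against 363 and 1723 (2.50), and the inhibitor Cdkn1a (p21), with 4265 and 31329 (3.33) against 15347 and 36594 (1.50). Ccnd2 was also 1.37 higher on the log2 scale with regorafenib in the M1 libraries.

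**Figure D4:**
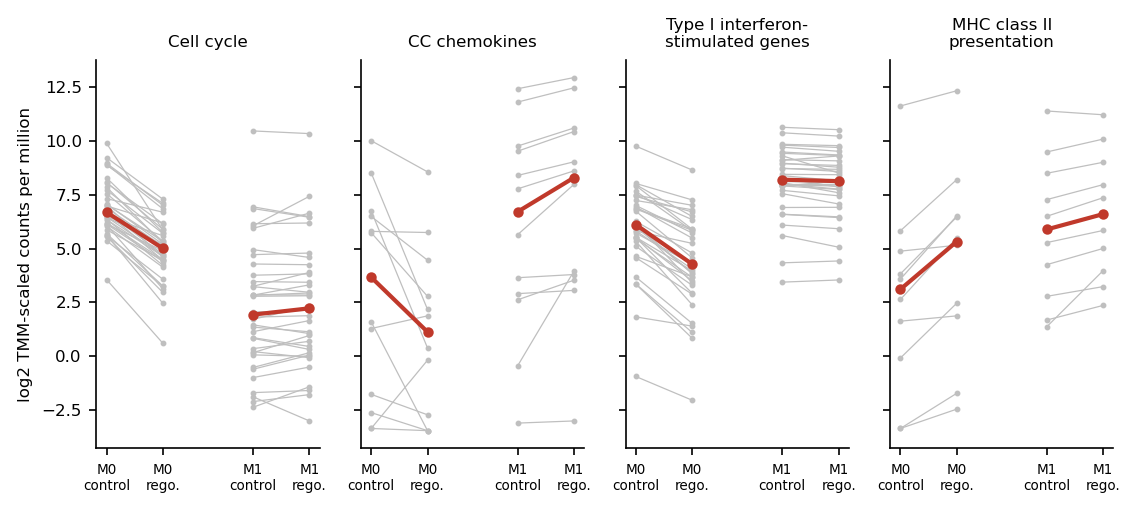
Log2 TMM-scaled CPM of each member (grey) of 4 gene lists and their median (red) in the M0 and M1 libraries without (control) and with regorafenib (rego.), 1 library each, with counts of 3 or fewer set to 3. Cell cycle, CC chemokine and type I interferon-stimulated genes are lower and MHC class II genes higher in M0 with regorafenib, and in each list the medians of the M1 libraries lie closer together than those of the M0 libraries.

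Type I interferon-stimulated genes had a median of 3.62 with regorafenib and 2.13 without it. Of 35, 24 had a difference of 1 or more and 0 of −1 or less, against 11.2% and 10.4% of all genes compared. Isg15 had 173 and 13019 counts with the drug and 1245 and 14512 without it. Cxcl10 had 66 and 4523 against 467 and 3665 (6.55 and 3.22). Their M1 levels were similar, with a list median of 281 CPM with regorafenib and 295 CPM without it, whereas the M0 medians were 19.5 and 69.3 CPM. Tnf had 623 and 68721 counts with regorafenib and 2029 and 48221 without it (7.24 against 4.82, difference 2.42, 2.29 to 2.55).

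MHC class II genes showed the reverse, with a median of 1.88 with regorafenib and 3.77 without it. A difference of −1 or less was found in 5 of 10, against 10.4% of all genes compared. H2-Ab1 had 3030 and 12444 counts with the drug and 368 and 9366 without it, so both libraries were higher with it, M0 by 2.94 and M1 by 0.51 on the log2 scale. Ciita had 686 and 495 counts with regorafenib and 47 and 495 without it, and its M1 levels did not differ beyond counting error (0.10, −0.08 to 0.28). Acute phase and antimicrobial genes had medians of 5.23 and 7.58, with a difference of −1 or less in 7 of 16 (10.4% of all genes compared). Hp (haptoglobin) had 365 and 1429 counts with the drug and 16 and 6489 without it (2.42 against 8.91), and Ms4a4a, a membrane protein of the MS4A family, 974 and 2123 against 17 and 6218 (1.58 against 8.76). Within M1, regorafenib against control gave log2 ratios of −2.08 for Hp and −1.45 for Ms4a4a.

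Apoe, the apolipoprotein of cholesterol efflux, had 41460 and 613 counts with regorafenib (−5.63, −5.75 to −5.51) and 1184 and 617 without it (−0.69). Selenop, a selenium carrier, had 45827 and 1157 counts against 5951 and 1128. Other genes among the 10 lowest differences were Tcp11l2, Mturn, Slpi, Fzd1, Mamdc2 and Clec4n. Clec4n (dectin-2), a receptor for fungal mannans, had 2135 and 923 counts with the drug (−0.76) and 290 and 2111 without it (3.11).

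Several genes had ratios of similar size in both pairs. Il1b (13.02 with regorafenib and 12.90 without it, difference 0.12, −0.28 to 0.53), Ccl5 (11.07 and 11.14), Klf4 (−2.07 and −2.12, difference 0.05, −0.23 to 0.33) and Fth1 (1.88 and 1.91) were among them. The level of Klf4 was lower with regorafenib than without it in both states, under 2-fold. Its log2 ratio to control was −0.74 (−0.86 to −0.63) in M0 and −0.70 (−0.96 to −0.43) in M1. Guanylate-binding proteins had medians of 6.84 and 6.14, MHC class I genes 2.16 and 2.27, and the M2 signature −1.93 and −1.90, but members of each list differed. Of the 28 genes of the M2 signature, 5 had a difference of 1 or more and 7 of −1 or less (11.2% and 10.4% of all genes compared). Of 11 guanylate-binding proteins, 3 had a difference of 1 or more. Of 19 MHC class I genes, 3 had a difference of −1 or less, among them the heavy chains H2-K1 (0.89 with regorafenib and 2.04 without it) and H2-D1 (0.61 and 1.77). Il12b and Il12a rest on 0 to 3 counts in the M0 libraries, so their differences have wide intervals (−0.53 to 3.74 for Il12b), but their M1 counts can be compared. Il12b was 1.50 higher on the log2 scale with regorafenib in M1 (1.47 to 1.54), with 26829 counts against 10147. Cd40 had 15600 against 8957 counts in M1 (0.90, 0.86 to 0.94), and Nos2 had 221627 against 410649 (−0.79, −0.80 to −0.78).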

How the data were processed

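Poly(A) RNA from BMDMs was sequenced as 1 stranded library per condition. Per the labels and the study's methods, the authors trimmed reads with cutadapt 2.4, aligned them to GRCm38 with STAR 2.7.2a against Gencode M19 and deposited the gene counts of uniquely mapped reads. The strand column used is not stated. M1 with regorafenib was compared with M0 with regorafenib. Genes with at least 10 counts in one of these libraries entered. Counts were scaled with TMM over all 6 libraries (edgeR 4.0.16), and 95% intervals of a ratio came from the exact binomial of the counts of the gene (scipy 1.17.1). The calculation was run on simulated Poisson counts, the error that these intervals assume. That run cannot show how the intervals hold with PCR copies or spread between libraries. Intervals of a difference of log2 ratios used the Poisson variance of the counts. A count of 3 or fewer was set to a floor of 3 counts for calls and bounds. With 1 library per condition no test was made. The study's own test simulates replicates and was left out. Exons, overlaps and shared 100-base words came from Gencode M21, which matched 53229 of 54446 gene IDs with their version. RefSeq promoters were matched for 10080 of 14159 genes.

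Genes named are those the study measured, the 15 highest and 15 lowest ratios and the 10 highest and lowest differences among genes with at least 100 counts, the 10 largest CPM differences each way, genes with opposite directions, and members of 44 lists. Some of these genes are not reported here. Members and lists were chosen with earlier results of these data known. Scaling, filter, treatment of 0, an added 1 CPM and restriction to protein-coding genes were varied in 9 alternatives.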

Additional observations from a re-analysis of the deposited data

Results flagged for a closer look

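Of the genes that entered both pairs of libraries, 58 were past 2-fold in opposite directions with and without regorafenib, 36 of them lower with the drug and higher without it. Given are the 5 whose higher library reached 100 counts in both pairs. Each pair gives 1 ratio from 1 M0 and 1 M1 library, and the difference between the ratios was not tested. Mturn had 1113 and 241 counts in M0 and M1 with regorafenib and 100 and 396 without it, a difference of log2 ratios of −3.99 (−1.76 against 2.24). Mgst1, a microsomal glutathione transferase, had 4198 and 1281 counts with the drug and 693 and 1383 without it, a difference of −2.51. Jmy, an actin nucleator, had 1146 and 389 against 274 and 585, a difference of −2.45. Mmp8, a neutrophil collagenase also made by macrophages, had 1610 and 584 against 787 and 1359, a difference of −2.05. Its ratio with the drug, −1.01, was −0.94 with DESeq2 size factors, within 2-fold. Nme1, a nucleoside diphosphate kinase, had the opposite pattern, with 187 and 290 counts with the drug and 673 and 230 without it, a difference of 2.38. Its ratio with the drug, 1.08, was 0.67 with scaling to total counts, within 2-fold. With that scaling, the ratios without the drug of Mgst1, Jmy and Mmp8 were also within 2-fold. Of the 5 genes, only Mturn was then past 2-fold in opposite directions. The M0 libraries were more than 2-fold apart for each of the 5 genes but Mmp8.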

How the results depend on the processing

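No difference or list median past 2-fold changed sign under the 9 alternatives. For the ratio of a single gene past 2-fold, a change of sign was not possible. The scalings shifted log2 ratios by at most 0.41, and the other alternatives keep the sign of such a ratio. Of 27 list medians past 2-fold, 5 were within it in at least 1 alternative: AP-1 genes (0.74), Fcγ receptors (0.71) and metallothionein, iron and Nrf2 genes (0.60) with scaling to total counts, and neutrophil and dendritic cell markers (0.45 each) with genes of at least 1 count. Counts of genes moved with scaling and with the treatment of low counts. With scaling to total counts, 27.7% of 2-fold calls were higher in place of 43.1%, the median log2 ratio was −0.51 in place of −0.09, and 1680 genes were at least 2-fold higher. With 1 CPM added to both values, 1997 genes were at least 2-fold lower (3056), 700 at least 4-fold higher (1180) and 661 at least 4-fold lower (1261). With genes of at least 1 count included, the median log2 ratio was 0.32, since genes with 3 or fewer counts in both libraries were set to the same count. Differences of −1 or less numbered 866 with at least 50 counts and 757 with 1 CPM added (1422). Genes with opposite directions numbered 14 with at least 50 counts, 6 with 1 CPM added and 36 among protein-coding genes (58). Of the 77 genes chosen by a rule other than list membership, Lyz2, Mmp8 and Nme1 fell within 2-fold in some alternatives. Genes named only as list members were not in that count. Among them, Pfkfb4, Pycard and Mdh2 fell within 2-fold under another scaling. TMM over M0 and M1 with regorafenib alone gives no value without the drug. No paired analysis was possible because each condition had 1 library. The depth of the libraries limits ratios with few counts in M0, such as those of Il12a and Csf3.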
